A study of Mus musculus with 4 samples.

Results

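The genes for lysosomal enzymes, lysosomal membrane proteins and the vacuolar ATPase were followed in the lens of newborn mice that lack Tdrd7. Members were chosen by symbol: genes whose symbol begins with Atp6v or Atp6ap, cathepsins written as Cts and 1 letter, and 21 named lysosomal genes. This gave 49 of the 10790 genes in the deposited table, made up of 19 vacuolar ATPase genes, 9 cathepsins and the 21 named genes. All 49 passed the filter on low values, a mean of 1 scaled read or more, and were therefore tested. RNA was measured in whole lenses at postnatal day 4 from Tdrd7 null mice (Tdrd7 -/-) and from wild type controls, with 2 libraries of each genotype. Each library held RNA pooled from 15 lenses, so variation between animals was averaged within a library and the p-values measure the spread between these libraries. For strain, sex and the way the allele was made the labels give nothing. A whole lens holds a front epithelium and a mass of fiber cells, and in such tissue fewer cells of a type and less RNA per cell cannot be told apart.

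Lysosomes are acidic organelles in which soluble hydrolases break down proteins, sugars, lipids and whole organelles delivered by endocytosis and autophagy. The acid is made by the vacuolar ATPase, a rotary pump in which the cytosolic V1 sector splits ATP and turns a rotor, and the membrane-bound V0 sector carries protons. Lens fiber cells clear their organelles as they mature and keep their crystallins for life. TFEB and related transcription factors bind E-boxes of the CLEAR type in the promoters of many lysosomal genes.

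The deposited values are reads divided by 1 factor per library, called scaled reads here, with no correction for gene length. The listed genes held 39080159 and 33920522 reads in the Tdrd7 null libraries and 41096488 and 42767535 reads in the control libraries. A member was backed by between 36 reads (Ctso) and 12960 reads (Ctsd) in a library. Tdrd7 itself had 165 and 96.6 scaled reads in Tdrd7 null lenses, against 1188 and 972 in control lenses (log2 fold change -3.08, SE 0.168, limma adjusted p = 1.17e-06). All 13 lens fiber marker genes were listed by symbol (of the 14 names searched, Aqp0 is another name of Mip), and 9 of 10 lens epithelium markers. None of 16 macrophage markers and none of 10 retina markers was among the genes analysed here. Crystallins took 62.9% and 59.7% of scaled reads in Tdrd7 null libraries and 62.3% and 63.0% in control libraries.

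Promoter sequence is shown first, because the CLEAR element is the feature through which these genes are known to be driven together. RefSeq promoter windows (GRCm38.p6, 250 nt before to 50 nt after a gene's start) were found by symbol for 39 of the 49 members. Of these, 4 had more than 1 window, and a gene was counted when any of its windows held the motif. The E-box CACGTG, searched on both strands, was held by 14 of the 39 members (35.9%), against 995 of 8143 other genes of the table (12.2%). Counted by window and not by gene, it lay in 7.15% of all 32851 windows. The longer form GTCACGTG, which contains the shorter motif and was also searched on both strands, was held by 9 of the 39 members (23.1%). The motif was held by 418 of the 8143 other genes (5.13%) and, counted by window, lay in 2.25% of all windows. Windows of 30 nt around the motif are given 5′ to 3′ on the gene's strand for 5 members: the only one with the motif among the 4 called members that have a window (Gaa), the calcium channel of the lysosome (Mcoln1), a V0 subunit (Atp6v0d1) and the soluble and the membrane member with the most scaled reads (Ctsd, Lamp1). Capitals mark every copy of the motif.
Gaa (chr11:119267811-119267840, plus strand): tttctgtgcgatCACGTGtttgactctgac
Mcoln1 (chr8:3500435-3500464, plus strand): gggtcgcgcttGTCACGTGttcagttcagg
Atp6v0d1 (chr8:105566051-105566080, minus strand): gccctactgcgGTCACGTGagacgcggtgc
Ctsd (chr7:142388048-142388077, minus strand): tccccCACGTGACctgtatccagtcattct
Lamp1 (chr8:13159122-13159151, plus strand): atgccgactggCACGTGACcacatCACGTG
In Ctsd and Lamp1 the longer motif appears as read from the other strand, and the Lamp1 window also ends in a copy of the shorter motif. Members with and without the motif had fold changes that overlapped. The 14 members with CACGTG had a median log2 fold change of 0.00 (Tdrd7 null over control, range -0.34 to 0.15), with none called higher and 1 called lower. The 25 members without it had a median of 0.02 (range -0.44 to 0.32), with 3 called higher and none lower. Of all tested genes, 10.1% were called higher and 7.88% lower. Only 4 called members had a window, and the difference between members with and without the motif was not tested. A motif match describes the letters in the window and says nothing on whether a factor bound there.

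Few of the 49 genes differed between the genotypes. At a limma adjusted p under 0.05, 5 rose in Tdrd7 null lenses (Atp6v1d, Asah1, Atp6ap2, Atp6v1c1 and Lamp2), 2 fell (Gaa and Npc1) and 42 were not called. The share called was 14.3%, against a background of 18.0% of all 10696 tested genes (10.1% higher and 7.88% lower). The share of members is thus no higher than that of the table as a whole. The fold changes were small: their median size was 0.0958 on the log2 scale over the members and 0.129 over all tested genes, and their signed median was 0.02 over the members and -0.01 over all tested genes. Positive fold changes were found in 26 members and negative ones in 23. In 12 members both Tdrd7 null libraries lay above both control libraries and in 12 they lay below, 24.5% in each direction, against 30.2% and 31.3% of all tested genes (61.5% in both directions together). The members together made up 0.233% and 0.243% of all scaled reads in Tdrd7 null libraries and 0.235% and 0.237% in control libraries, ranges that overlap at the level of crystallin-free reads too (0.629% and 0.602% against 0.624% and 0.639%).

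Most of the 7 calls were lost when GC content was taken into account, or when any of 3 of the 4 libraries was left out. Once the trend of fold change with transcript GC content and length was removed, none was higher and 1, Npc1, was lower, against 3.17% of all genes called in either direction. Counts of members called higher and lower were 5 and 6 without Tdrd7 null replicate 1, 2 and 1 without Tdrd7 null replicate 2, 1 and 1 without control replicate 1, and 1 and 0 without control replicate 2. All 7 were kept without Tdrd7 null replicate 1, 4 were kept with library totals set equal (Atp6v1d, Asah1, Npc1 and Gaa), and none without the intensity trend of the limma prior. None of the 7 changed sign in any of the 16 fits with other settings.

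**Figure D1:**
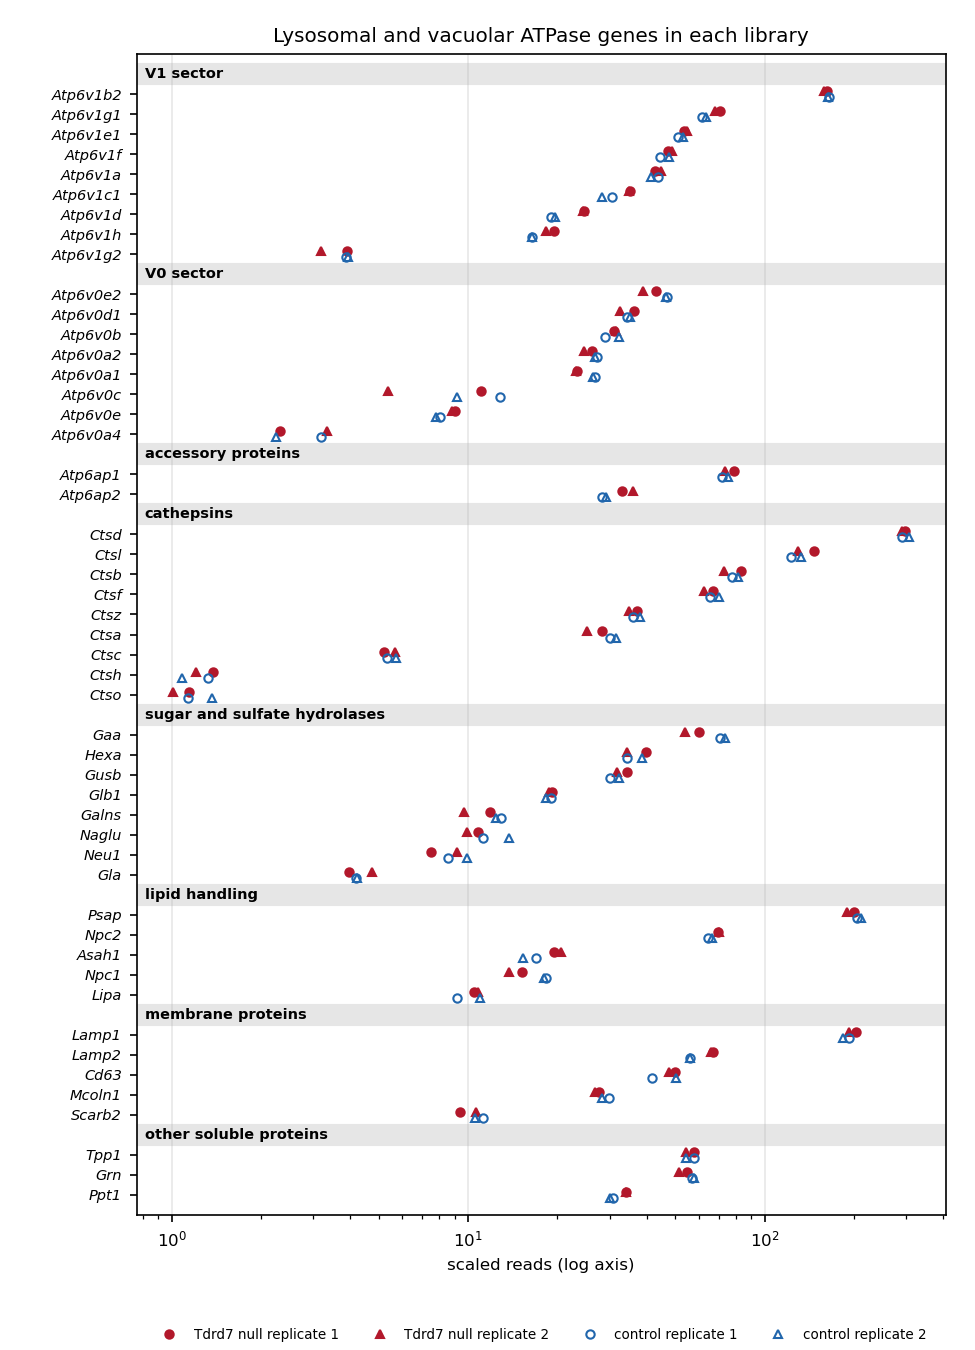
Scaled reads (log axis) of the 49 genes in each library, grouped by role. Red symbols are the 2 Tdrd7 null libraries and open blue symbols the 2 control libraries; most genes show overlapping or nearly overlapping genotypes, from Ctso near 1 scaled read to Ctsd near 300.

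The V1 sector, which splits ATP, held 2 of the 3 called pump genes. Of its 9 genes 2 rose (22.2%, against 10.1% of all tested genes), none fell and 7 were not called. The log2 fold change was positive in 7. An unadjusted p under 0.05 was found for 4 of the 9, against 3538 of all 10696 tested genes. In 5 of the 9 (55.6%) both Tdrd7 null libraries lay above both control libraries, against 30.2% of all tested genes. Atp6v1d, the D subunit of the central rotor shaft (chr12:78842989-78861638), had 24.5 and 24.4 scaled reads in Tdrd7 null lenses, against 19.1 and 19.6 in control lenses. Both Tdrd7 null libraries lay above both control libraries, and the difference was 0.32 on the log2 scale (SE 0.0648, limma adjusted p = 0.00613). Atp6v1c1, the C subunit that joins the stator to V0 and is lost when the pump comes apart (chr15:38661904-38692443), had 35.2 and 34.8 scaled reads in Tdrd7 null lenses and 30.5 and 28.3 in control lenses. The genotypes did not overlap here either (log2 fold change 0.24, SE 0.0628, limma adjusted p = 0.0197). With the GC and length trend removed, the log2 fold change was 0.18 for Atp6v1d (limma adjusted p = 0.126) and 0.17 for Atp6v1c1 (limma adjusted p = 0.131), so neither call was kept.

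The other 7 V1 genes did not pass, with log2 fold changes between -0.12 and 0.19. Atp6v1b2, the B subunit found in most tissues, was the V1 gene with the most reads, at 163 and 158 scaled reads in Tdrd7 null lenses and 164 and 164 in control lenses (log2 fold change -0.03, SE 0.0507, limma adjusted p = 0.698). Atp6v1a, which holds the catalytic site, had 42.7 and 44.7 scaled reads in Tdrd7 null lenses and 43.6 and 41.3 in control lenses, overlapping values (log2 fold change 0.04, limma adjusted p = 0.658). These 2 subunits form the ring that splits ATP. Atp6v1g1, a stalk subunit, had 70.6 and 67.8 scaled reads in Tdrd7 null lenses and 61.6 and 63.5 in control lenses, which do not overlap but did not pass (log2 fold change 0.14, SE 0.0549, limma adjusted p = 0.0869). Atp6v1h, a regulatory subunit with the lowest GC content of the 49 genes at 37.6%, had 19.5 and 18.3 scaled reads in Tdrd7 null lenses and 16.4 and 16.4 in control lenses. Its log2 fold change of 0.19 (limma adjusted p = 0.0699) was -0.02 with the GC and length trend removed. Atp6v1e1 and Atp6v1f, of the stalk and the rotor, had log2 fold changes of 0.05 and 0.06, and Atp6v1g2, the G isoform known from neurons, one of -0.12, all with a limma adjusted p of 0.493 or more.

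None of the 8 genes of the proton-carrying V0 sector was called with limma, against 18.0% of all tested genes. An unadjusted p under 0.05 was found for 2 of the 8, against 3538 of all 10696 tested genes. The log2 fold changes of the 8 V0 genes were negative in 5 and positive in 3, with a median of -0.05. Atp6v0a1, an a subunit that shapes the proton path, had 23.4 and 23.1 scaled reads in Tdrd7 null lenses and 26.7 and 26.4 in control lenses. The genotypes did not overlap and the replicates lay close together, yet the gene just missed the threshold (log2 fold change -0.19, SE 0.0626, limma adjusted p = 0.0555; with the GC and length trend removed -0.22, limma adjusted p = 0.0628). Atp6v0e2, an isoform of the small e subunit, had 43.0 and 38.9 scaled reads in Tdrd7 null lenses and 46.9 and 46.4 in control lenses (log2 fold change -0.18, SE 0.0625, limma adjusted p = 0.0573). Atp6v0d1, which couples the rotor to the membrane ring, overlapped between genotypes at 36.1 and 32.5 scaled reads in Tdrd7 null lenses and 34.4 and 35.1 in control lenses (log2 fold change -0.02, limma adjusted p = 0.873).

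Atp6v0c, the proteolipid of the rotating membrane ring, had the largest fold change of the 49 genes. On the log2 scale it also had the widest spread within a genotype. Atp6v0c had 11.1 and 5.38 scaled reads in Tdrd7 null lenses and 12.9 and 9.15 in control lenses. The first Tdrd7 null library thus lay between the 2 control libraries, and the log2 fold change of -0.44 (SE 0.216) was not called (limma adjusted p = 0.181). It was -0.90 without Tdrd7 null replicate 1 (limma adjusted p = 0.000159) and 0.02 without Tdrd7 null replicate 2 (limma adjusted p = 0.929). Processed pseudogenes of Atp6v0c are annotated (Atp6v0c-ps1 and Atp6v0c-ps2), and the labels do not say how reads shared with them were counted.

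Isoforms of the same subunit stood at different levels. Levels between genes are compared as scaled reads per kb of the longest annotated transcript. Among the a subunits, Atp6v0a1 stood at 5.58 ± 0.0502 per kb in Tdrd7 null lenses and 6.38 ± 0.0601 in control lenses (SD, n = 2 each, as in the rest of the paragraph). Atp6v0a2 stood at 4.75 ± 0.218 per kb in Tdrd7 null lenses and 5.06 ± 0.0576 in control lenses, below Atp6v0a1 in both. Before division by length the order was the reverse. Atp6v0a2 had 25.4 ± 1.17 scaled reads and Atp6v0a1 23.2 ± 0.209 in Tdrd7 null lenses, and 27.1 ± 0.308 and 26.5 ± 0.250 in control lenses. The order of these 2 isoforms thus depends on the transcript lengths used. Atp6v0a4, the isoform known from kidney, stood at 0.857 ± 0.222 in Tdrd7 null lenses and 0.821 ± 0.200 in control lenses, the lowest of these a subunits in both genotypes. For the G subunit, Atp6v1g1 stood at 61.0 ± 1.71 per kb in Tdrd7 null lenses and 55.1 ± 1.21 in control lenses, whereas Atp6v1g2 stood at 1.88 ± 0.274 in Tdrd7 null lenses and 2.08 ± 0.0250 in control lenses. For the e subunit the isoform Atp6v0e2, at 22.9 ± 1.61 per kb in Tdrd7 null lenses and 26.1 ± 0.192 in control lenses, stood above Atp6v0e, at 3.18 ± 0.0444 in Tdrd7 null lenses and 2.82 ± 0.0571 in control lenses. Atp6v1g1, Atp6v1f (59.6 ± 1.34 in Tdrd7 null and 57.1 ± 3.02 in control lenses) and Atp6v1b2 (56.8 ± 1.07 in Tdrd7 null and 58.1 ± 0.0531 in control lenses) had the highest levels per kb of the pump genes. Their order differed between the genotypes. Atp6v1g1 and Atp6v1f did not differ beyond their spread in either genotype, nor did Atp6v1f and Atp6v1b2 in control lenses. In Tdrd7 null lenses Atp6v1f, at 58.7 and 60.6 per kb, lay above Atp6v1b2, at 57.6 and 56.1, without overlap.

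**Figure D2:**
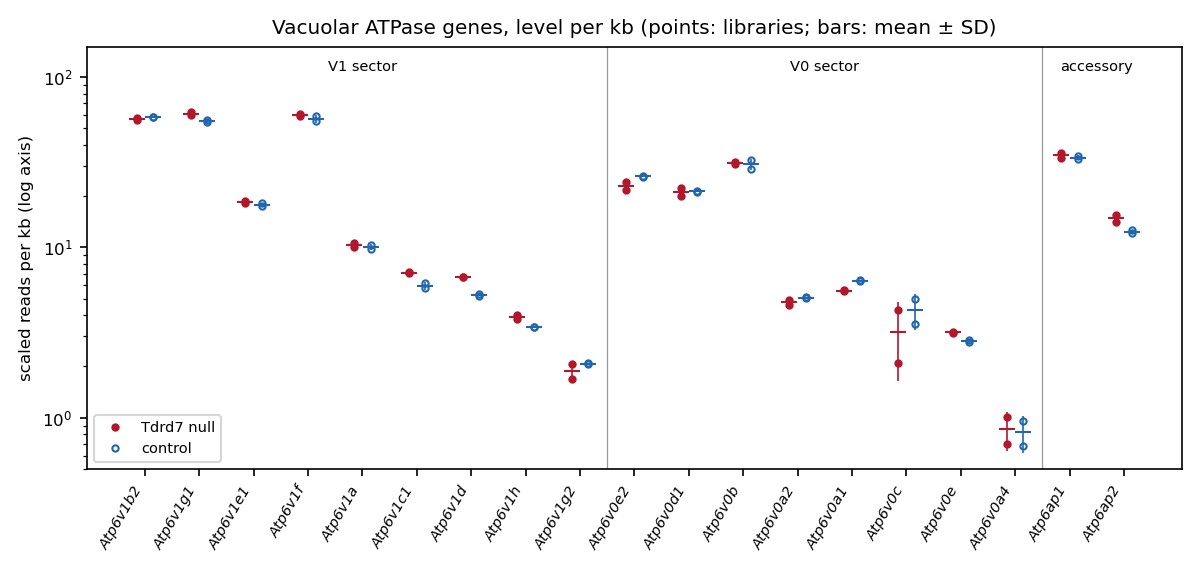
Level of each vacuolar ATPase gene in scaled reads per kb (log axis), with Tdrd7 null (red) left of control (open blue). Points are libraries, and bars the mean and SD over 2 libraries; Atp6v0a4 among the a isoforms, Atp6v1g2 among the G isoforms and Atp6v0e among the e isoforms sit lowest in both genotypes.

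Of the 2 accessory proteins of the pump, 1 was called (50%, against 18.0% of all tested genes). Atp6ap2, the prorenin receptor that also sits on the pump (chrX:12587801-12617049), had 32.9 and 36.1 scaled reads in Tdrd7 null lenses and 28.2 and 29.2 in control lenses, without overlap. It rose by 0.26 on the log2 scale (SE 0.0654, limma adjusted p = 0.0189). That value was 0.05 with the GC and length trend removed (limma adjusted p = 0.723). Atp6ap1, which takes part in assembly of V0, overlapped at 78.8 and 73.5 scaled reads in Tdrd7 null lenses and 72.0 and 75.2 in control lenses (log2 fold change 0.05, SE 0.0571, limma adjusted p = 0.589).

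The cathepsins, the main lysosomal proteases, did not differ detectably between the genotypes. None of the 9 was called with limma, against 18.0% of all tested genes. For 1 of the 9 the unadjusted p was under 0.05, against 3538 of all 10696 tested genes. In 8 of the 9 the genotypes overlapped, against 4122 of the 10696. Ctsd, the aspartic protease of the lysosome, was the most abundant of the 49 genes, with 296 and 291 scaled reads in Tdrd7 null lenses and 291 and 307 in control lenses. Its libraries overlapped (log2 fold change -0.02, SE 0.0528, limma adjusted p = 0.784), and by mean value it lay above 98.6% of all listed genes. Ctsl, a cysteine protease, had 146 and 130 scaled reads in Tdrd7 null lenses and 122 and 133 in control lenses (log2 fold change 0.11, SE 0.0652, limma adjusted p = 0.262). Ctsb, another cysteine protease, had 83.1 and 72.8 scaled reads in Tdrd7 null lenses and 77.6 and 81.0 in control lenses (log2 fold change -0.03, limma adjusted p = 0.801). In both genes the spread within a genotype was as wide as the distance between them. Ctsa, the protective protein of the sialidase and beta-galactosidase, was the exception in that its genotypes did not overlap, at 28.2 and 25.1 scaled reads in Tdrd7 null lenses and 30.01 and 31.6 in control lenses. The difference was -0.20 on the log2 scale (SE 0.0695, limma adjusted p = 0.0596), and -0.09 with the GC and length trend removed. Ctsf, Ctsz and Ctsc had log2 fold changes between -0.07 and -0.02. Ctsh and Ctso were low, at 1.38 and 1.21 scaled reads for Ctsh in Tdrd7 null lenses and 1.33 and 1.09 in control lenses, and at 1.14 and 1.01 for Ctso in Tdrd7 null lenses and 1.13 and 1.37 in control lenses.

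Among the 8 hydrolases of sugars and sulfates, 1 fell, none rose and 7 were not called. The share called was 12.5%, against 18.0% of all tested genes (7.88% lower). Gaa, the acid alpha-glucosidase that degrades glycogen in the lysosome (chr11:119267887-119285454), had 60.04 and 53.9 scaled reads in Tdrd7 null lenses, against 70.9 and 73.3 in control lenses. Both Tdrd7 null libraries were the lower ones (log2 fold change -0.34, SE 0.0618, limma adjusted p = 0.00436). Gaa has one of the most GC-rich transcripts of the 49 genes at 59.5%, and its log2 fold change with the GC and length trend removed was -0.13 (limma adjusted p = 0.201). Naglu and Galns, which act on heparan sulfate and on keratan sulfate, did not overlap between genotypes but did not pass. Naglu had 10.8 and 9.88 scaled reads in Tdrd7 null lenses and 11.3 and 13.7 in control lenses (log2 fold change -0.25, SE 0.0947, limma adjusted p = 0.0867). Galns had 11.8 and 9.69 scaled reads in Tdrd7 null lenses and 12.9 and 12.4 in control lenses (log2 fold change -0.22, SE 0.0922, limma adjusted p = 0.114). Hexa, the alpha subunit of beta-hexosaminidase, had 39.7 and 34.4 scaled reads in Tdrd7 null lenses and 34.4 and 38.5 in control lenses, with full overlap (log2 fold change 0.02, limma adjusted p = 0.880). Gusb, Glb1, Gla and Neu1, which remove glucuronic acid, beta-galactose, alpha-galactose and sialic acid, overlapped between genotypes as well, with log2 fold changes between -0.14 and 0.08.

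The 5 genes that handle lipids held 1 higher and 1 lower call (20% each, against 10.1% and 7.88% of all tested genes). Asah1, the acid ceramidase (chr8:41340197-41374773), had 19.5 and 20.6 scaled reads in Tdrd7 null lenses, against 16.98 and 15.4 in control lenses. It rose without overlap (log2 fold change 0.29, SE 0.0740, limma adjusted p = 0.0181), and the call was lost with the GC and length trend removed (0.15, limma adjusted p = 0.259). Psap, the precursor of the saposins that present lipids to their hydrolases, had 199.9 and 189 scaled reads in Tdrd7 null lenses and 204 and 211 in control lenses (log2 fold change -0.10, SE 0.0534, limma adjusted p = 0.227). Npc2, the soluble cholesterol carrier, had 69.8 and 69.9 scaled reads in Tdrd7 null lenses and 64.3 and 66.4 in control lenses (log2 fold change 0.10, SE 0.0537, limma adjusted p = 0.236). Neither passed, although in both the genotypes did not overlap. Lipa, the acid lipase, overlapped (log2 fold change 0.08, limma adjusted p = 0.587).

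Npc1, the membrane protein that exports cholesterol from the lysosome, was the call that remained when the GC and length trend was removed. The gene (chr18:12189693-12236400) had 15.1 and 13.8 scaled reads in Tdrd7 null lenses, against 18.3 and 18.0 in control lenses. Both Tdrd7 null libraries lay below both control libraries, a log2 difference of -0.31 (SE 0.0737, limma adjusted p = 0.0139), and of -0.35 with the trend removed (SE 0.0717, limma adjusted p = 0.0204). Npc1 shares 511 nt of exonic sequence on the opposite strand with Rmc1, a gene for a partner of the Mon1-Ccz1 complex of late endosomes, listed in the table as 3110002H16Rik. The libraries were made without strand marking, so within that stretch the reads of the 2 genes cannot be told apart. That gene, looked up because of the overlap, had 26.1 and 24.0 scaled reads in Tdrd7 null lenses, against 34.98 and 35.5 in control lenses. It fell further than Npc1 (log2 fold change -0.48, SE 0.0643, limma adjusted p = 0.00106), and its part in the fall of Npc1 was not tested. Without Tdrd7 null replicate 2, control replicate 1 or control replicate 2 the limma adjusted p of Npc1 was 0.0814, 0.0974 and 0.0815.

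Of the 5 lysosomal membrane proteins other than Npc1 and the pump, 1 rose (20%, against 10.1% of all tested genes). Lamp2, a heavily glycosylated protein of the lysosomal membrane that serves in autophagy (chrX:38401357-38456454), had 66.7 and 65.9 scaled reads in Tdrd7 null lenses, against 56.2 and 56.2 in control lenses. The replicates of each genotype lay close together, and the difference was 0.24 on the log2 scale (SE 0.0537, limma adjusted p = 0.0113). Lamp2 has the lowest GC content of the called members at 38.7%, and with the GC and length trend removed it stood at a log2 fold change of 0.02 (limma adjusted p = 0.862). Its relative Lamp1 had 204 and 193 scaled reads in Tdrd7 null lenses and 192 and 184 in control lenses (log2 fold change 0.07, SE 0.0536, limma adjusted p = 0.359). Cd63, a tetraspanin of late endosomes, overlapped between genotypes at 50.01 and 47.4 scaled reads in Tdrd7 null lenses and 41.7 and 50.4 in control lenses. Its log2 fold change was 0.09 as deposited (limma adjusted p = 0.472) and 0.25 with the trend removed (limma adjusted p = 0.0834). Mcoln1 and Scarb2, the receptor that carries glucocerebrosidase, had log2 fold changes of -0.10 and -0.10 and were not called.

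The 3 remaining soluble proteins were not called (0%, against 18.0% of all tested genes). Tpp1, a tripeptidyl peptidase, had 57.6 and 54.4 scaled reads in Tdrd7 null lenses and 57.7 and 54.1 in control lenses, nearly the same values (log2 fold change 0.00, SE 0.0590, limma adjusted p = 0.984). Grn, the precursor of the granulins, had 54.7 and 51.3 scaled reads in Tdrd7 null lenses and 56.7 and 57.9 in control lenses (log2 fold change -0.11, SE 0.0574, limma adjusted p = 0.201). Ppt1, which removes palmitate from proteins, had 34.2 and 34.1 scaled reads in Tdrd7 null lenses and 30.7 and 30.2 in control lenses, without overlap (log2 fold change 0.16, SE 0.0594, limma adjusted p = 0.0796).

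**Figure D3:**
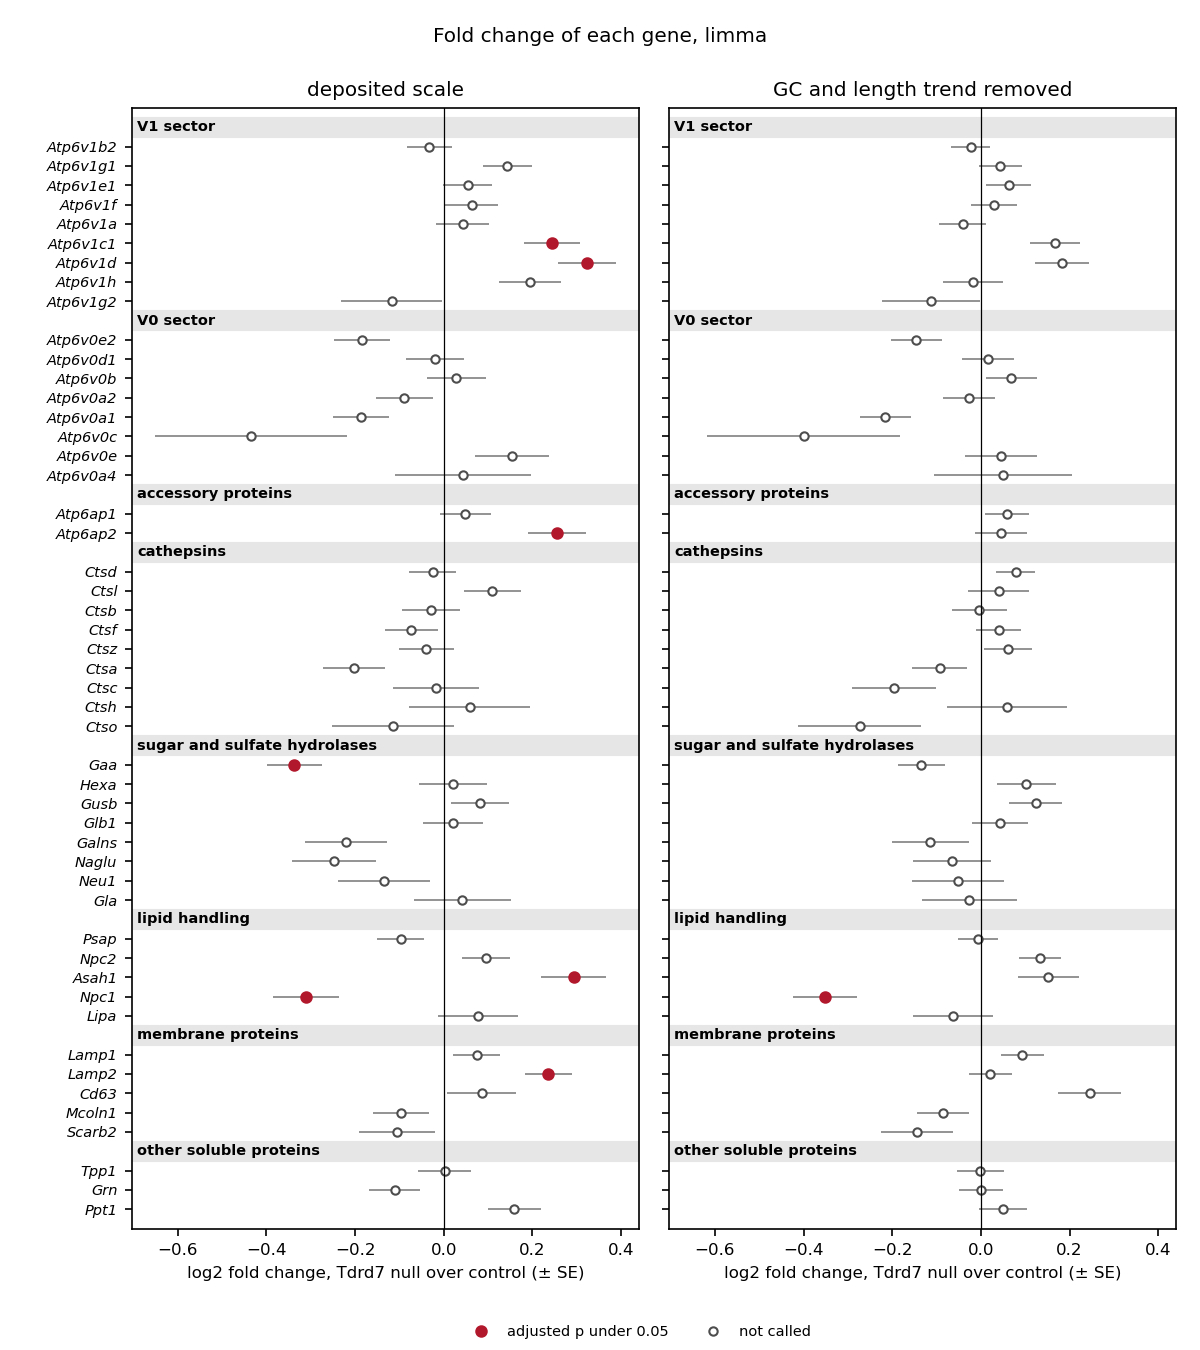
log2 fold change of each gene (Tdrd7 null over control, bars are SE from limma), as deposited on the left and with the GC and length trend removed on the right. Filled red points have an adjusted p under 0.05: 7 genes on the left and Npc1 alone on the right.

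Fold changes of the members varied with GC content, as did those of the rest of the table. Across the 49 genes the log2 fold change fell with the GC content of the longest transcript (Pearson r = -0.546, Spearman rho = -0.524), as it did across 10656 tested genes (r = -0.594, rho = -0.623). These genes share the same 4 libraries, and the coefficients are descriptions. The 12 members under 45% GC, which range from Ctso (-0.11) to Atp6v1d (0.32), had a median log2 fold change of 0.17, against 0.15 for all 2764 genes of that class. The 27 members between 45% and 55% had a median of -0.02, against -0.01 for all 5541 such genes. The 10 members over 55%, which range from Gaa (-0.34) to Cd63 (0.09), had a median of -0.06, against -0.16 for all 2351 such genes. The difference between members and other genes of a class was not tested. All 5 genes called higher thus lay between 38.7% and 44.4% GC. Npc1, at 45.7%, fell within the middle class, whose median over all genes was -0.01. Whether the gradient arose in the tissue or in the libraries was not tested.

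**Figure D4:**
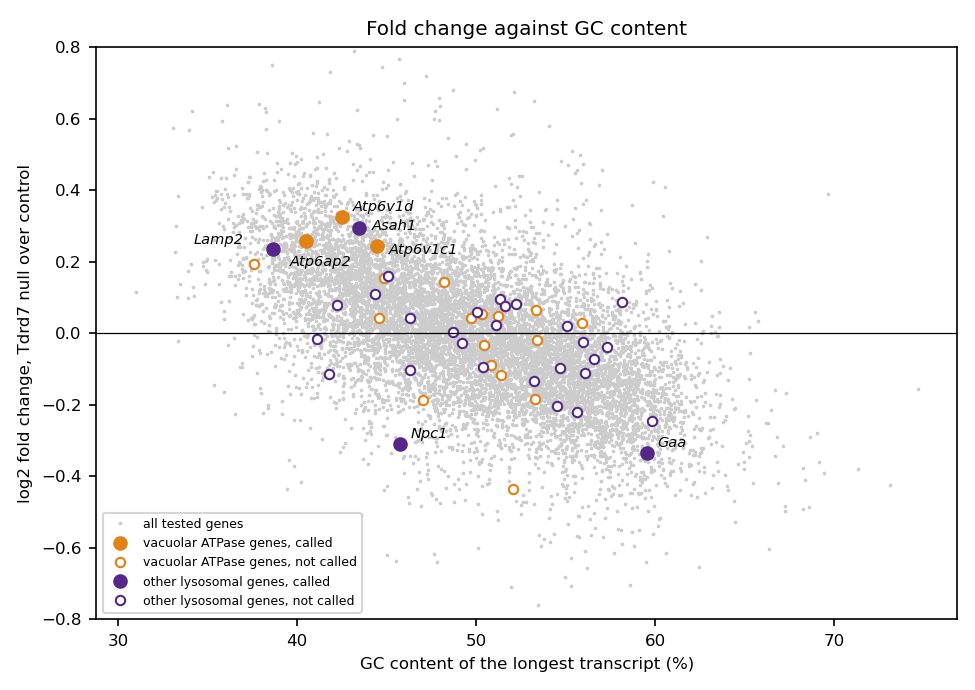
log2 fold change (Tdrd7 null over control) against GC content of the longest transcript, for all tested genes (grey) and the 49 genes (orange and purple, filled where called). The called higher genes sit at the low-GC end and Gaa at the high-GC end; 16 genes lie outside the plotted range of 0.8 either side.

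**Figure D5:**
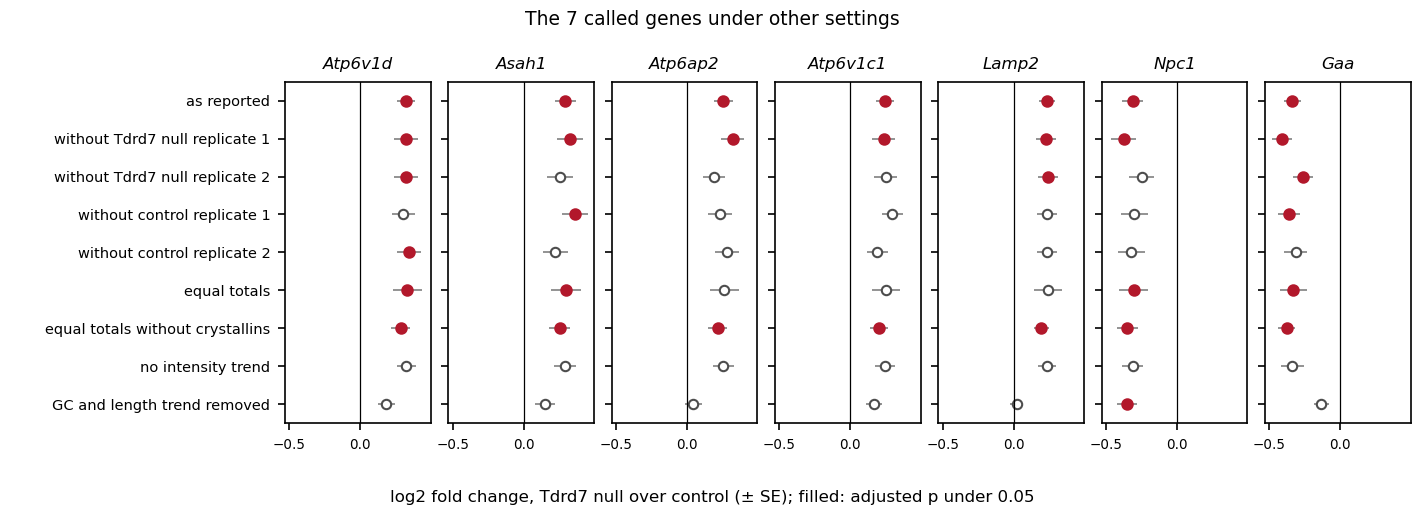
log2 fold change of the 7 called genes (bars are SE) as reported, without each library, under other scalings, without the intensity trend of the prior and with the GC and length trend removed. Filled red points have an adjusted p under 0.05; no gene changes side of 0, and with the GC and length trend removed Npc1 alone is filled.

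Genes that assemble and regulate the pump gave 3 higher calls and no lower ones among the 12 tested (25%, against 18.0% of all tested genes called in either direction and 10.1% called higher). Vma21, an assembly factor of the V0 sector, had 34.9 and 36.6 scaled reads in Tdrd7 null lenses, against 26.1 and 26.3 in control lenses, a wider gap than for any pump gene that was called (log2 fold change 0.44, SE 0.0613, limma adjusted p = 0.00124). With the GC and length trend removed it was 0.22 (limma adjusted p = 0.0573). The other calls were Oxr1 (log2 fold change 0.23) and Dmxl1 (0.22), and none of the 3 was called with the trend removed. Tcirg1, the a subunit known from osteoclasts, had 2.39 and 2.51 scaled reads in Tdrd7 null lenses and 3.18 and 3.34 in control lenses (log2 fold change -0.30, limma adjusted p = 0.0762).

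Of 41 further lysosomal hydrolases, 2 rose, 1 fell and 38 were not called (7.32% called, against 18.0% of all tested genes). Hgsnat, the membrane acetyltransferase of heparan sulfate breakdown, had 24.2 and 21.7 scaled reads in Tdrd7 null lenses, against 35.6 and 30.6 in control lenses (log2 fold change -0.51, SE 0.0789, limma adjusted p = 0.00213). With the GC and length trend removed it was -0.50 (limma adjusted p = 0.00516), and it was called in 15 of the 16 fits with other settings. Idua, the iduronidase of the same pathway, had 10.4 and 10.5 scaled reads in Tdrd7 null lenses, against 7.98 and 8.52 in control lenses (log2 fold change 0.31, limma adjusted p = 0.0238; 0.41 with the trend removed, limma adjusted p = 0.0170). The heparan sulfate enzymes thus moved in both directions, with Naglu among the members not called.

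The transcription factor Tfeb fell. It had 5.48 and 4.62 scaled reads in Tdrd7 null lenses, against 7.43 and 6.88 in control lenses (log2 fold change -0.43, SE 0.101, limma adjusted p = 0.0129), and its GC content was 63.2%. The call was lost with the GC and length trend removed (log2 fold change -0.20, limma adjusted p = 0.289). Its relatives Tfe3 and Mitf had log2 fold changes of -0.09 and 0.10 and were not called. Among the 35 tested transcription factors and mTORC1 regulators that act on the lysosome, 2 rose and 5 fell (20%, against 18.0% of all tested genes). The share that fell was 14.3%, against 7.88% of all tested genes, and the share that rose 5.71%, against 10.1%. None of the 35 was called with the trend removed. Others called were Rptor, of mTORC1 (log2 fold change -0.26), and Sec13, of GATOR2 (0.21).

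Sorting and fusion genes, which deliver enzymes to the lysosome, gave 5 higher and 5 lower calls among 44 tested (22.7%, against 18.0% of all tested genes), and none with the GC and length trend removed. Those with the smallest p were Ap3s1, Ap1s2 and Ap3m1, subunits of adaptor complexes, with log2 fold changes of 0.37, 0.37 and 0.25, and Bloc1s1 with -0.36. Other lysosomal membrane proteins gave 1 higher and 6 lower calls among 32 tested (21.9%, against the same 18.0%). The lower calls made up 18.75%, against 7.88% of all tested genes, and the higher ones 3.125%, against 10.1%. The smallest p values among them were those of Abca2 (log2 fold change -0.29), Cd164 (0.20), Tpcn1 (-0.26) and the tetraspanin Cd81 (-0.20). Of these only Cd81 was called with the trend removed (log2 fold change -0.23). None of 4 tested cathepsin inhibitors was called in limma, against 18.0% of all tested genes, and none had an unadjusted p under 0.05. With the GC and length trend removed none was called, and 2 of the 4 had an unadjusted p under 0.05, against 1981 of 10656 tested genes. Cst3, the most abundant inhibitor, had 89.3 and 79.6 scaled reads in Tdrd7 null lenses and 81.2 and 90.8 in control lenses.

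Markers of other lysosome-rich or accompanying cells were low or not among the genes analysed here. Of 10 pigment cell markers 3 were listed (Trpm1, Oca2 and Tyrp1), none was called, and they summed to 20.005 and 18.4 scaled reads in Tdrd7 null libraries and 20.4 and 21.0 in control libraries. Of 8 endothelial markers 7 were listed and none was called. Their sum was 14.8 and 21.5 scaled reads in Tdrd7 null libraries and 20.5 and 11.7 in control libraries, so it moved within genotypes rather than between them. Of the 9 lens epithelium markers tested, Gja1 rose while Foxe3 and Slc2a1 fell (33.3% called, against 18.0% of all tested genes). None of the 3 was called with the GC and length trend removed. Of the fiber markers Lim2, which the table lists under 2 gene IDs, fell under 1 of them (log2 fold change -0.25), which had no GC value and was not tested with the trend removed, and was not called under the other (-0.02). The part of cell make-up in the values of the 49 genes was not tested.

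Reads shared with other genes limit some of these values. By annotation, 14 of the 49 genes overlap the exons of another gene, on either strand, by 100 nt or more: Atp6v0a2, Atp6v0a4, Atp6v0b, Atp6v1g2, Atp6v1h, Ctsa, Ctsb, Ctsd, Ctsl, Glb1, Hexa, Lamp1, Npc1 and Ppt1. Of the 7 called genes Npc1 alone is among them. Ctsb shares 774 nt with Fdft1 on the opposite strand, which rose with a log2 fold change of 0.26 (limma adjusted p = 0.00734) while Ctsb was not called.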

How the data were processed

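Whole lens RNA was sequenced as TruSeq version 2 libraries without strand marking, per the labels and the design text. Per the submitters' processing notes, the build was mm10 (GRCm38) and the tools named, without their roles, are TopHat2 2.0.9, Trimmomatic, Cuffnorm and Cufflinks; which of them counted reads and scaled the libraries is not stated there. The authors deposited 1 signal value per gene and library. These values were whole multiples of 1 step per library, within 0.00201 of a whole read, and the step was 0.0266 and 0.0282 in the Tdrd7 null libraries and 0.0241 and 0.0237 in the control libraries. The highest value of every listed gene was at least 1.02, so genes with few reads are not in the table.

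Genes whose mean was 1 or more (10696) were compared as log2(value + 1) with limma 3.58.1 (R 4.3.3), an intensity trend, two-sided tests and Benjamini-Hochberg adjustment over all of them. Fold changes understate the change of low genes. There were 2 residual degrees of freedom, with 11.1 from the prior. An exact permutation of 2 against 2 libraries cannot give a p below 0.333. For the GC and length correction, natural splines (5 degrees of freedom each) on GC content and log2 length of the longest GENCODE M21 transcript were removed from the 10656 tested genes that have both; all 49 members have them. Called members, the 2 most abundant and the most changed of each role are given in full. The members and lists were chosen with earlier results of these data known. Some called genes of the related lists are not reported here. The script was tested on simulated data.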

Additional observations from a re-analysis of the deposited data

How the results depend on the processing

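As reported, 1077 genes were higher and 843 lower, with 5 and 2 of the 49 members, and median log2 fold changes of 0.0206 for the members and 0.0430 for the pump genes. With the GC and length trend removed the counts were 203, 135, 0 and 1. Equal library totals gave 560, 430 and 2 members higher. Equal totals without crystallins gave 6 members lower and medians of -0.0187 for the members and 0.0087 for the pump genes. The median over all tested genes was -0.0405 with that scaling, against -0.00518 as reported. Without the intensity trend the counts were 9, 7, 0 and 0. Members lower numbered 4 with a minimum mean of 5 and 5 with a robust prior. At an adjusted p under 0.1, 1327 genes were lower, with 8 members higher and 6 lower. Leaving out 1 library gave 293 to 1166 genes higher, 138 to 1030 lower, 1 to 5 members higher, 0 to 6 lower, and medians of -0.0374 to 0.0247 for the members and 0.0178 to 0.0795 for the pump genes; the lone library of a genotype is then assumed to vary like the other genotype.

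Replicates share only a number, and the differences between replicates of the 2 genotypes correlated at r = -0.151. A replicate block kept all 7 calls and gave 5 members lower; with the GC and length trend also removed it gave 237 genes higher, 186 lower and 1 member higher. The crossed pairing, added after seeing the data, gave 1628 genes higher and 1408 lower, with 8 and 8 members. None of the 7 calls changed sign. Atp6v0c was called under the block with and without the GC and length trend removed, under the crossed pairing, with equal totals and without Tdrd7 null replicate 1. Tests with edgeR and DESeq2 were not run: the table holds scaled values, and the whole reads read off from them were used only to describe depth. The cause of these shifts was not tested. With 2 libraries a genotype, small changes of genes with few reads, such as Ctso and Ctsh, were not detectable at this depth.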

Other observations

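The median size of the difference between replicates over the 49 genes was 0.0901 on the log2 scale in Tdrd7 null lenses and 0.0624 in control lenses. In Tdrd7 null lenses the second library was lower than the first, with a median difference of -0.08 on the log2 scale over the 49 genes, while the median over all tested genes was 0.00. In control lenses the median difference was 0.03 over the 49 genes and 0.00 over all tested genes.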
